A study of Mus musculus with 6 samples.

Results

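Nuclear pore proteins and the receptors that carry cargo through the pore were examined in megakaryocyte progenitors (MkP), the blood precursors of megakaryocytes and platelets. Genes were taken by symbol: nucleoporins whose symbol is Nup and a number, the karyopherins of the Kpna and Kpnb families, the importins named Ipo and the exportins named Xpo. This gave 39 of the 18193 genes that a probe set of the array names alone, each represented by the brightest of its probe sets. All 39 passed the filter on dim probe sets. The study compared MkP from fetal liver at stage E13.5 (3 arrays) with MkP from the bone marrow of adults aged 12 to 18 weeks (3 arrays), all from wild type C57BL/6 mice. In both organs the progenitors had been flow sorted as cells negative for lineage antigens and Sca-1 and positive for CD150, CD41 and c-kit. The labels call the arrays of a tissue biological replicates without saying how many animals or embryos each pooled. The p-values rest on the spread between these samples, with each gene's variance drawn by limma towards a trend over all genes. The genes of the sort, Itga2b (CD41), Kit and Slamf1 (CD150), were above background on all 6 arrays. Of 7 measured genes of the sort and the megakaryocyte lineage 0 passed the threshold below and 2 were lower in fetal liver at an unadjusted p under 0.05 in limma, with summed signals of 23895 to 28707 in fetal liver and 32386 to 35978 in marrow.

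The nuclear pore is a channel through the nuclear envelope built from many copies of each nucleoporin. Scaffold nucleoporins of the Y complex form its outer rings, an inner ring lines the channel, and nucleoporins with phenylalanine-glycine repeats fill it. Importins and exportins bind cargo on one side and release it on the other under the control of the small GTPase Ran, which is loaded with GTP in the nucleus. Importin alpha is an adaptor that recognises nuclear localisation signals and joins them to importin beta.

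Of the 39 genes, 6 rose in fetal liver MkP and 0 fell (limma on log2 signals, Benjamini-Hochberg adjusted p under 0.05 over all 11625 genes). At an unadjusted p under 0.05 in limma, 10 were higher and 1 was lower in fetal liver, where 10.7% and 12.1% of all genes were. The 6 that rose were the Y complex genes Nup107, Nup37 and Nup43, the inner ring gene Nup93, the importin alpha gene Kpna2 and the exportin gene Xpo4. Their changes lay between 0.67 and 1.22 on the log2 scale, fetal liver minus bone marrow. Among all genes tested, 3.01% rose and 4.76% fell. Among the 1984 genes at least as bright as the median of the 39, 4.23% rose and 3.73% fell. The median change of the 39 genes was 0.36, against 0.01 over all genes and 0.08 over those 1984. A positive change was found for 32 of the 39 genes, or 82.1%, against 50.5% of all genes and 58.4% of the 1984. The fetal liver signals all lay above the marrow signals for 15 of the 39 genes, and all below for 1, where 13.8% and 14.2% of all genes showed such a separation. In the remaining 23 genes the tissues overlapped.

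The adjusted p-values of the 6 genes ran from 0.0227 to 0.0471, close to the threshold. With 1 array left out, the number that rose was 2, 0 and 0 without fetal liver replicates 1, 2 and 3, and 1, 2 and 2 without marrow replicates 1, 2 and 3. Without the intensity trend in the variance model the number was 0. It was 3 under quantile normalization and 10 under median centring, which moved the median change of all genes to 0.26. Of the 39 changes, 30 were positive under quantile normalization and 36 under median centring.

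**Figure D1:**
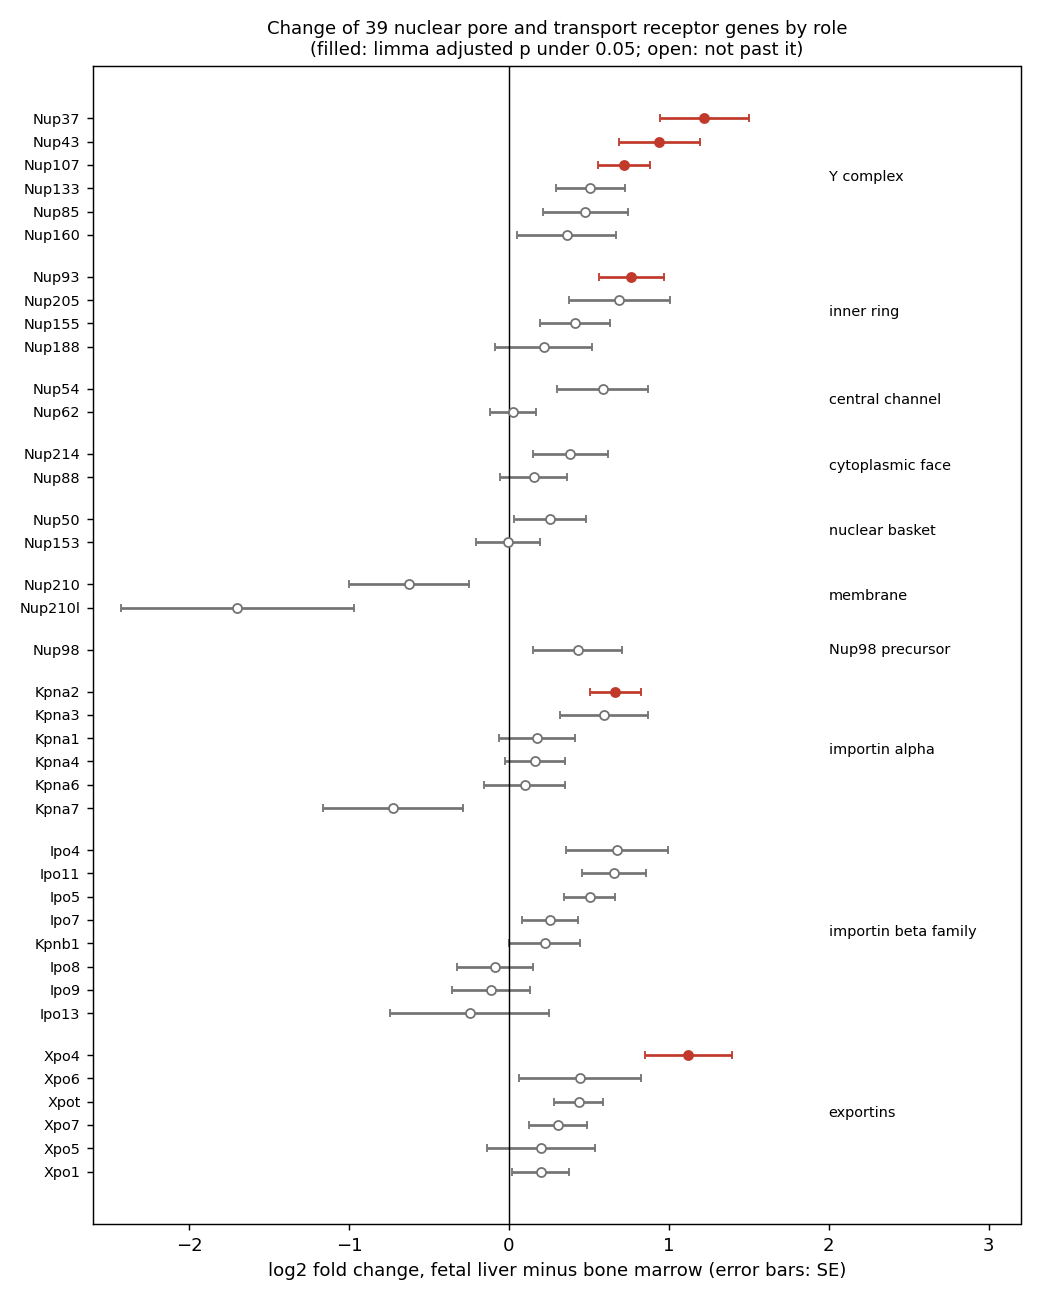
Log2 fold change, fetal liver minus bone marrow (horizontal axis), of all 39 genes grouped by role, with the standard error of the limma fit as bars (3 arrays per tissue). The 6 filled points are the genes that rose, and the 2 membrane nucleoporins among the 39 genes lie left of 0.

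**Figure D2:**
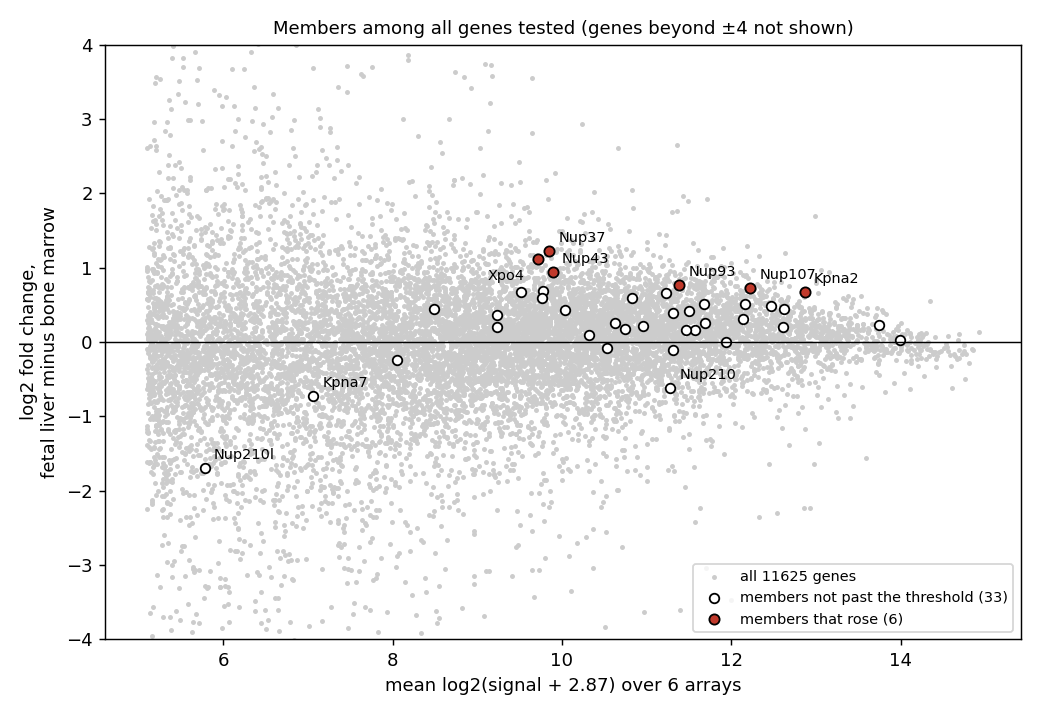
Log2 fold change, fetal liver minus bone marrow (vertical axis), against mean log2(signal + 2.87) over the 6 arrays (horizontal axis) for all 11625 genes tested (grey). The 39 nuclear pore and transport receptor genes are circled, with the 6 that rose filled, and 32 of the 39 lie above 0.

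Markers of other cell types differed between the same arrays. All 10 measured granulocyte and monocyte markers fell, with a summed signal of 4777 to 6901 in fetal liver arrays and 44440 to 70377 in marrow arrays. Erythroid markers rose in 4 of 8 measured cases. The summed signals of the 9 with a probe set were 15447 to 30479 in fetal liver and 6407 to 11242 in marrow. Hba-a1 was not above background on any array. Of 5 hepatocyte markers 1 rose, with sums of 605 to 3644 in fetal liver and 223 to 624 in marrow. Among 3 measured macrophage markers 1 fell. The sums over the 6 with a probe set, which include those too dim to be measured, were 242 to 391 in fetal liver and 1518 to 3119 in marrow. The 1 measured lymphoid marker was not past the threshold, and the list's sums were 319 to 382 in fetal liver and 286 to 511 in marrow. The median signal per array was 62.8 to 65.5 in fetal liver and 74.1 to 80.2 in marrow (two-sided exact permutation p = 0.1, the smallest that 3 against 3 arrays allow). For Actb, the signal of the 5' probe set over that of the 3' probe set, which falls as RNA is degraded, was 0.892 to 1.02 in fetal liver and 1.06 to 1.13 in marrow (exact permutation p = 0.1). The same ratio for Gapdh was 0.109 to 0.449 in fetal liver and 0.0990 to 0.303 in marrow, which overlapped. Its means were 0.330 in fetal liver and 0.193 in marrow (exact permutation p = 0.3), and replicate 1 was the lowest array in each tissue. The part of these differences in the changes below was not tested. In sorted bulk RNA, fewer cells that express a gene and less of its RNA per cell cannot be told apart.

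RefSeq promoter windows (GRCm38.p6) were matched by symbol for 31 of the 39 genes, among them 4 of the 6 that rose. These 4 are shown because they are the windows found for genes that rose. Each line gives the 250 bases before the start that the promoter table lists, or before the most upstream one where it lists several for a gene, read 5′ to 3′ on the gene's strand. Capitals mark matches, on either strand, to CCAAT (the box bound by NF-Y), CCGGAAG (an ETS motif), TTTGAA (the core of the cell cycle homology region), the NRF1 motif, GATAA (core of the GATA factor motif) or TTTCCCGC (an E2F motif). No 2 matches overlap in these windows.
Nup107, chr10:117792706-117792955, minus strand: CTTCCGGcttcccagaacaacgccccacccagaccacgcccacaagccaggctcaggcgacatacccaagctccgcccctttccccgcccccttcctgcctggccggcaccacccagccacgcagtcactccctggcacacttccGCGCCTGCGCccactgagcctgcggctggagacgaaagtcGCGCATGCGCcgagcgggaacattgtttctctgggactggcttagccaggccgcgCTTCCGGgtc
Nup37, chr10:88146742-88146991, plus strand: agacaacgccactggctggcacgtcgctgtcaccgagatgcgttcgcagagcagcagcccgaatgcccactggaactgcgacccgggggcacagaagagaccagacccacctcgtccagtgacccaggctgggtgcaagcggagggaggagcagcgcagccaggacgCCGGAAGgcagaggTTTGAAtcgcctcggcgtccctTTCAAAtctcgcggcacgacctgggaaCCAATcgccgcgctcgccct
Nup93, chr8:94214314-94214563, plus strand: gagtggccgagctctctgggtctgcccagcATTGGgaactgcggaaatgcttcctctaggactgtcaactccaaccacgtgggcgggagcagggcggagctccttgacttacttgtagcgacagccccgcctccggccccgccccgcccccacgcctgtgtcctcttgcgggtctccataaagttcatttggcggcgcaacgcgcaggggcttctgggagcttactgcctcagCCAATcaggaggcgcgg
Kpna2, chr11:106999526-106999775, minus strand: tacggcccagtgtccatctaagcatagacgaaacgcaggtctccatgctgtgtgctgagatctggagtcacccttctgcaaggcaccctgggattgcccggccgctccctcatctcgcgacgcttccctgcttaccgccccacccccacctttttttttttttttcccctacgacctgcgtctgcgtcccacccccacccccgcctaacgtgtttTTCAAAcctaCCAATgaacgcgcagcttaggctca

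Nup37, Nup93 and Kpna2 each had a CCAAT match that began 20, 17 and 25 bases before the start listed with the promoter window. Nup37 had 2 TTTGAA matches and Kpna2 had 1, which began 69, 47 and 35 bases before it. The Nup107 window had no CCAAT or TTTGAA match and held 2 matches each to CCGGAAG and the NRF1 motif. None of the 4 windows matched GATAA or TTTCCCGC. For Nup37 and Nup107 the RefSeq gene begins upstream of the listed start, at 88146976 and, on the minus strand, 117792736. Their windows therefore reach into the gene, and matches nearest the listed start can lie within it. Over the 31 genes, CCAAT was present in 51.6% of windows, TTTGAA in 19.4%, CCGGAAG in 16.1%, the NRF1 motif in 16.1%, GATAA in 3.23% and TTTCCCGC in 3.23%. Over all 32851 windows of the table, which hold several for some genes, the shares were 33.8%, 16%, 6.91%, 3.74%, 22.6% and 0.895% in the same order. The windows of the 31 genes had a median of 64.4% G and C bases, against 52.4% over all windows. The shares describe these letters and not bound factors.

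The Y complex, whose subunits also sit at kinetochores in mitosis, held 3 of the 6 genes that rose. All 6 of its genes that were taken by symbol had positive changes, with a median of 0.61. Pore genes measured outside that rule, among them Sec13 and Seh1l, are not in this count. Sec13 and Seh1l had changes of 0.79 ± 0.24 and 0.09 ± 0.17 (SE, limma adjusted p = 0.0727 and 0.826). Nup107, a scaffold subunit, had signals of 6229, 6012 and 6195 in fetal liver and 3526, 3928 and 3743 in marrow. The tissues were far apart for the spread within each, at 6145 ± 117 in fetal liver and 3732 ± 201 in marrow (SD, n = 3 each). Its change was 0.72 ± 0.16 (log2, SE, limma adjusted p = 0.0227), a fold of 1.65. The call was lost without fetal liver replicates 2 and 3 (limma adjusted p = 0.101 and 0.110) and without marrow replicates 1 and 3 (0.0586 and 0.0529). The only probe set of Nup107 carries the suffix for several transcripts, so the alternative without such probe sets did not measure it.

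Nup37 and Nup43 encode beta-propeller subunits at the edge of the Y complex. Nup37 had signals of 1159, 1403 and 1715 in fetal liver and 483, 725 and 622 in marrow. The lowest fetal liver array was above the highest marrow array, and the change of 1.22 ± 0.28 (SE, limma adjusted p = 0.0252) was the largest rise among the 39 genes. It was lost without fetal liver replicates 2 and 3 (limma adjusted p = 0.108 and 0.140) and without marrow replicate 1 (0.0599). Nup43 had signals of 1589, 1200 and 1187 in fetal liver and 707, 648 and 694 in marrow, again without overlap. Its change of 0.94 ± 0.25 (SE, limma adjusted p = 0.0469) was past the threshold in none of the 6 fits that left out 1 array (limma adjusted p = 0.139, 0.140 and 0.136 without fetal liver replicates 1, 2 and 3, and 0.0743, 0.0810 and 0.0769 without marrow replicates 1, 2 and 3). A dimmer probe set of Nup43 was also separated, at 342, 313 and 289 in fetal liver and 116, 64.3 and 119 in marrow.

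The other Y complex genes were not past the threshold. Nup133, a membrane-sensing subunit, had signals of 4763, 3245 and 3853 in fetal liver and 3197, 2296 and 2813 in marrow, which did not overlap (change 0.51 ± 0.21, SE, limma adjusted p = 0.190). For Nup85 the change was 0.48 ± 0.26 and for Nup160 it was 0.36 ± 0.31 (limma adjusted p = 0.320 and 0.546). Nup98 encodes a precursor that is cut into the repeat protein Nup98 and the Y complex subunit Nup96. Its signals of 1221, 1116 and 1314 in fetal liver were all above those of 1113, 640 and 1026 in marrow, the closest pair nearly touching. The change of 0.43 ± 0.28 was not past the threshold (SE, limma adjusted p = 0.407).

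Of the 4 inner ring genes 1 rose. Nup93, a linker that holds the inner ring together, had signals of 3938, 3160 and 3404 in fetal liver and 2324, 1713 and 2160 in marrow. Every fetal liver array exceeded every marrow array, and the change was 0.77 ± 0.20 (SE, limma adjusted p = 0.0471), a fold of 1.70. It was past the threshold in none of the fits with 1 array left out (limma adjusted p = 0.118, 0.123 and 0.156 without fetal liver replicates 1, 2 and 3, and 0.0553, 0.106 and 0.0757 without marrow replicates 1, 2 and 3). The large scaffold gene Nup205 had signals of 893, 1082 and 1421 in fetal liver and 488, 930 and 717 in marrow. There marrow replicate 2 overlapped with fetal liver, and the change was 0.69 ± 0.32 (SE, limma adjusted p = 0.229). Nup155, the membrane-proximal subunit, and Nup188, a relative of Nup205, had changes of 0.41 ± 0.22 and 0.22 ± 0.30 (limma adjusted p = 0.304 and 0.734).

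The channel, the cytoplasmic face and the nuclear basket held no gene past the threshold. Nup62, the central repeat protein of the channel, had signals of 17738, 15279 and 16304 in fetal liver and 14222, 17822 and 16546 in marrow. These ranges overlapped almost fully, and the 95% interval of the change was -0.30 to 0.35 (log2). Its partner Nup54 had signals of 1296, 800 and 1151 in fetal liver and 785, 597 and 748 in marrow. The change was 0.59 ± 0.28 (SE, limma adjusted p = 0.252). Dimmer probe sets of Nup54, above background on every array, gave -0.20, 0.11, -0.21 and 0.98. Averaging its probe sets gave 0.25 (limma adjusted p = 0.644). Nup214, a cytoplasmic repeat protein that acts in RNA export, had signals of 3149, 2796 and 2763 in fetal liver and 3081, 1945 and 1828 in marrow. Marrow replicate 1 lay within the fetal liver range, and the change was 0.38 ± 0.24 (SE, limma adjusted p = 0.379). For its partner Nup88 the change was 0.15 ± 0.21 (limma adjusted p = 0.724). The basket gene Nup50 had a change of 0.26 ± 0.22 (SE, limma adjusted p = 0.553), with signals of 1717, 1661 and 1796 in fetal liver and 1185, 1709 and 1473 in marrow. Nup153, the anchor of the basket, had a difference of -0.01 with a 95% interval of -0.45 to 0.43.

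Both membrane nucleoporins measured had negative changes, without passing the threshold. Nup210, a transmembrane glycoprotein that anchors the pore, had signals of 1138, 2762 and 2542 in fetal liver and 1918, 4009 and 3813 in marrow. Replicate 1 was the low array in each tissue, the ranges overlapped, and the change was -0.62 ± 0.38 (SE, limma adjusted p = 0.367). Its relative Nup210l was dim, at 10.2, 53.1 and 36.1 in fetal liver and 156, 131 and 42.5 in marrow. It was above background on 2 of 3 fetal liver arrays and on 3 of 3 marrow arrays, and its change was -1.70 ± 0.73 (SE, limma adjusted p = 0.195). Background was the highest signal of 27 bacterial control probe sets on the same array, 22.2 to 35.1. The other 38 genes were above it on every array.

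Among 6 importin alpha genes Kpna2 rose. Kpna2, the importin alpha of proliferating and embryonic stem cells in mice, had signals of 10035, 8769 and 9507 in fetal liver and 6773, 5365 and 5754 in marrow. The lowest fetal liver array was well above the highest marrow array, and means were 9437 ± 636 in fetal liver and 5964 ± 727 in marrow (SD, n = 3 each). Its change was 0.67 ± 0.16 (SE, limma adjusted p = 0.0331), a fold of 1.59. The call was lost without fetal liver replicates 1, 2 and 3 (limma adjusted p = 0.0635, 0.0992 and 0.136) and without marrow replicates 2 and 3 (0.0849 and 0.0822). The reference annotation lists a Kpna2 pseudogene, whose RNA this probe set may not tell apart from that of Kpna2.

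The other importin alpha genes did not pass. Kpna3 had signals of 1603, 2632 and 2645 in fetal liver and 1450, 1170 and 1909 in marrow. Its fetal liver replicate 1 lay inside the marrow range (change 0.59 ± 0.28, SE, limma adjusted p = 0.235). Kpna1, Kpna4 and Kpna6, adaptors found in most tissues, had changes of 0.18, 0.16 and 0.10 with standard errors of 0.24, 0.19 and 0.25. Kpna7, the importin alpha of oocytes and early embryos, was dim, at 106, 110 and 88.6 in fetal liver and 165, 206 and 142 in marrow. It was the 1 gene of the 39 with every fetal liver array below every marrow array, yet the change of -0.72 ± 0.44 missed the threshold (SE, limma adjusted p = 0.371).

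**Figure D3:**
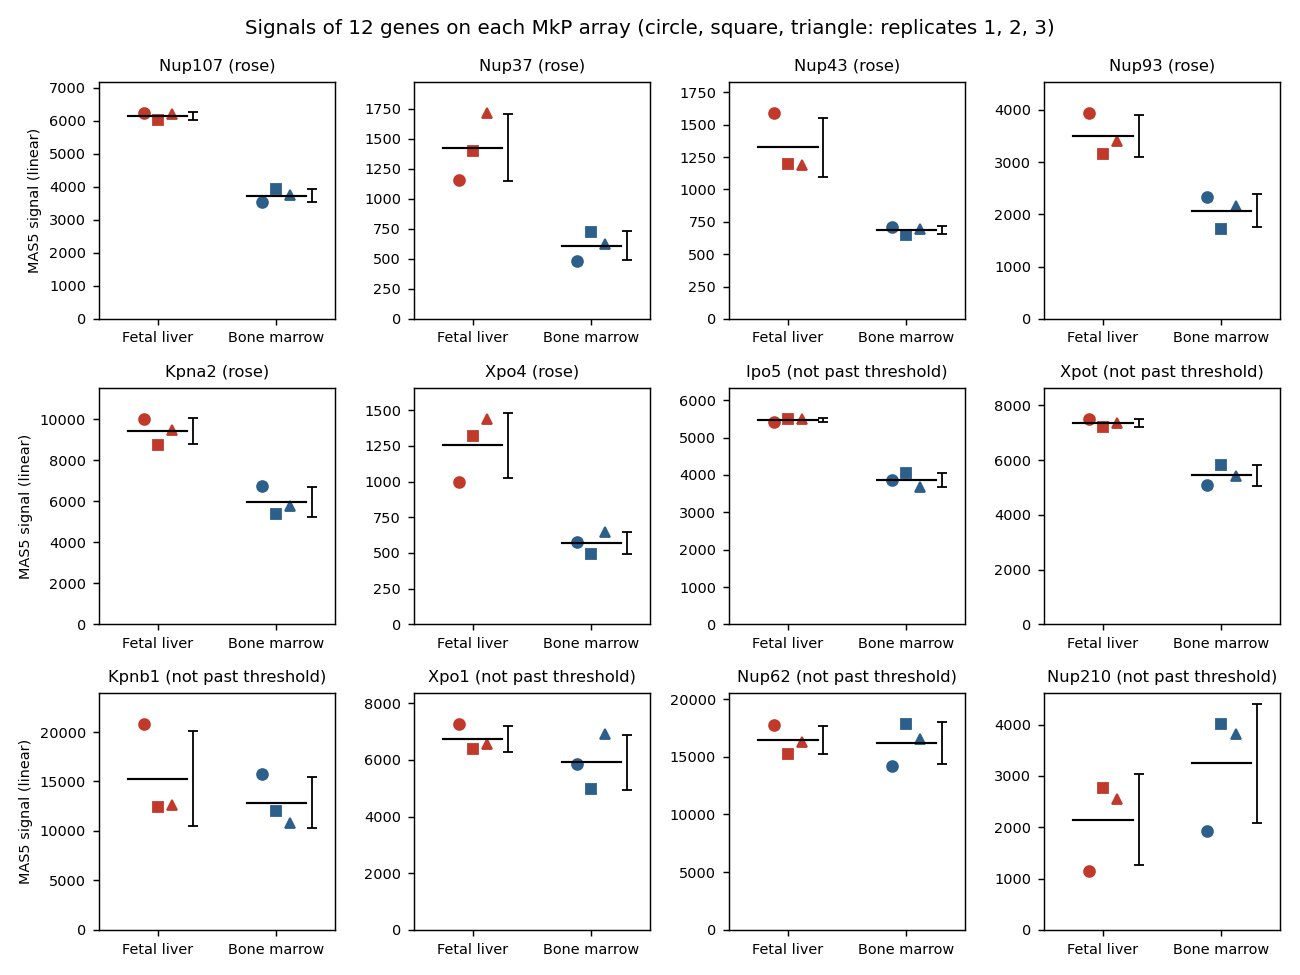
MAS5 signals (vertical axis, linear scale from 0) of 12 genes on each array, fetal liver at the left and bone marrow at the right of each panel. Horizontal lines are means and error bars are SD of 3 arrays. The 6 genes that rose show no overlap between tissues, as do Ipo5 and Xpot, which were not past the threshold, while Kpnb1, Xpo1, Nup62 and Nup210 overlap.

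None of the 8 genes of the importin beta family passed the threshold. At an unadjusted p under 0.05, Ipo11 and Ipo5 were higher in fetal liver. Kpnb1, importin beta itself, had signals of 20790, 12464 and 12590 in fetal liver and 15797, 11993 and 10827 in marrow. Replicate 1 was highest in both tissues, and the 95% interval of the change was -0.27 to 0.72. Without fetal liver replicate 1 the difference was -0.021, and averaging its 4 probe sets gave 0.54 (limma adjusted p = 0.0401), past the threshold. Ipo5, an importer of ribosomal proteins and histones, had signals of 5413, 5505 and 5489 in fetal liver and 3865, 4039 and 3665 in marrow. The 3 fetal liver arrays were nearly equal and all above marrow, with a change of 0.50 ± 0.16 (SE, limma adjusted p = 0.0875). Ipo11, an importer of ubiquitin-conjugating enzymes, had signals of 2573, 3126 and 3426 in fetal liver and 1808, 1924 and 2019 in marrow. These also did not overlap (change 0.66 ± 0.20, SE, limma adjusted p = 0.0746; 0.0188 under median centring). Ipo4, an importer of histones, had signals of 1021, 1022 and 759 in fetal liver and 702, 704 and 390 in marrow. Here the lowest fetal liver array stood just above the highest marrow array, and the change was 0.68 ± 0.32 (SE, limma adjusted p = 0.244).

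The remaining importins did not pass either. Ipo7, an importer of ribosomal proteins and histones, had a change of 0.26 ± 0.17 with separated signals (3471 to 3862 in fetal liver and 2913 to 3104 in marrow, limma adjusted p = 0.433). Ipo8, Ipo9, an importer of core histones, and Ipo13, which carries cargo in both directions, had negative changes of -0.09 ± 0.24, -0.11 ± 0.24 and -0.24 ± 0.50 (limma adjusted p = 0.878, 0.844 and 0.826). For Ipo13 the signals were 153, 257 and 359 in fetal liver and 203, 529 and 219 in marrow. Marrow replicate 2 was the high array, and the difference turned to 0.19 without it, to 0.08 without fetal liver replicate 1 and to 0.0066 under median centring.

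Of the 6 exportin genes Xpo4 rose, and the other 5 had positive changes that missed the threshold. Xpo4, the exporter of the translation factor eIF5A, had signals of 997, 1320 and 1440 in fetal liver and 575, 491 and 646 in marrow. The groups did not overlap, with a change of 1.12 ± 0.27 (SE, limma adjusted p = 0.0333), a fold of 2.18. A second Xpo4 probe set gave another picture. Its mean log2 signal over the 6 arrays was 9.70, against 9.72 for the first, which was chosen on that measure, while its mean linear signal was higher, at 947 against 911. It read 662, 924 and 793 in fetal liver and 486, 2176 and 642 in marrow, where replicate 2 stood far above the other 2 arrays, and its difference was -0.16. That probe set became the brightest, and the call was lost, under quantile normalization (-0.093) and without fetal liver replicates 1, 2 and 3 and marrow replicate 1 (-0.040, -0.28, -0.17 and -0.59). Without marrow replicate 2 the first probe set stood for Xpo4 at 1.02 (limma adjusted p = 0.0681), while averaging its probe sets gave 0.47 (limma adjusted p = 0.472).

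Xpot, the exporter of transfer RNA, had signals of 7511, 7222 and 7341 in fetal liver and 5088, 5830 and 5407 in marrow. The ranges were apart, with a change of 0.44 ± 0.15 (SE, limma adjusted p = 0.118; 0.0216 under median centring). Xpo1, the main exporter of proteins with a leucine-rich export signal, had signals of 7258, 6397 and 6542 in fetal liver and 5859, 4969 and 6913 in marrow. They overlapped through marrow replicate 3, and the 95% interval of the change was -0.19 to 0.59. Xpo7, an exporter with broad cargo, had signals of 5591, 4681 and 4815 in fetal liver and 4339, 4498 and 3406 in marrow. These did not overlap (change 0.31 ± 0.18, SE, limma adjusted p = 0.365), but a dimmer probe set without the suffix for several transcripts read -0.32. Xpo5, the exporter of microRNA precursors, and Xpo6, the exporter of actin, had changes of 0.20 ± 0.34 and 0.44 ± 0.38 (limma adjusted p = 0.787 and 0.551).

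Across the arrays, fetal liver replicate 1 held the highest fetal liver signal for 21 of the 39 genes and the lowest for 12. Replicates 2 and 3 were highest for 7 and 11. In marrow, replicate 2 was highest for 20 genes, replicate 1 for 13 and replicate 3 for 6. The median deviation of the 39 genes from their means over all arrays was 0.24, 0.08 and 0.12 (log2) on fetal liver replicates 1, 2 and 3, and -0.15, -0.12 and -0.25 on marrow replicates 1, 2 and 3, so the 2 tissues did not overlap in it.

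**Figure D4:**
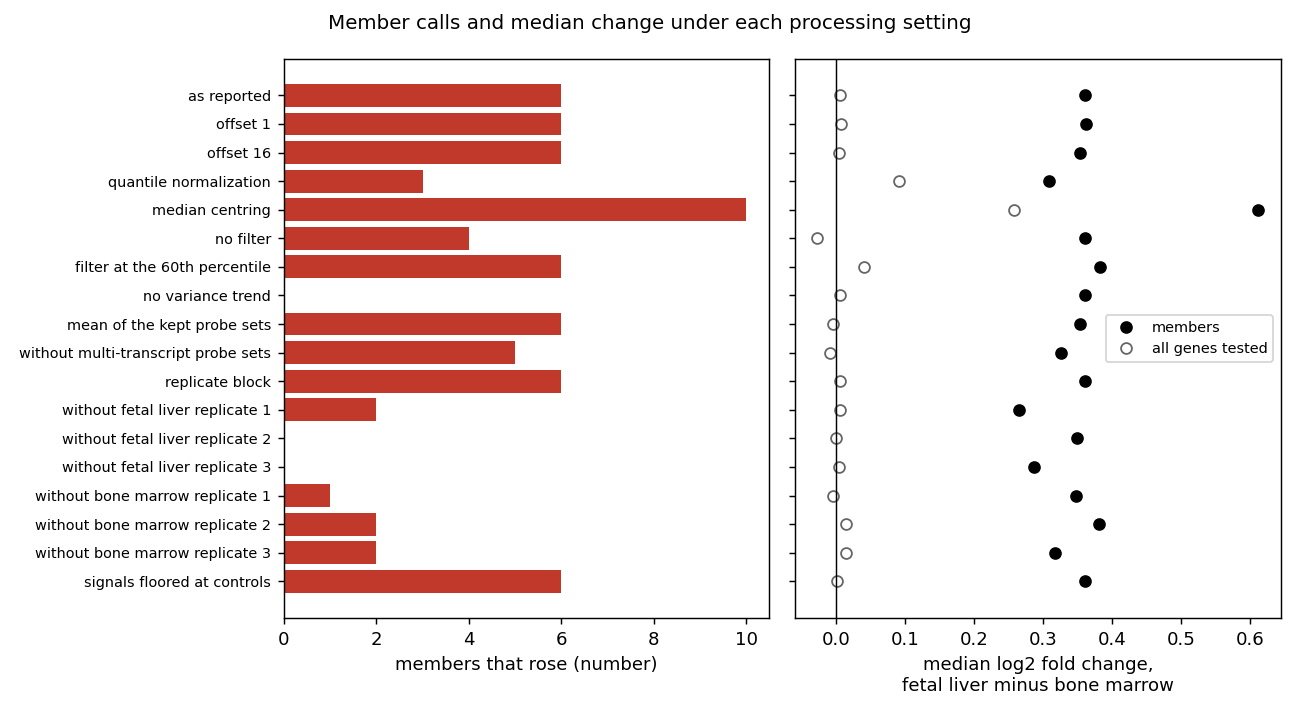
Number of the 39 genes that rose (left, bars from 0) and median log2 fold change, fetal liver minus bone marrow (right), of the 39 genes (filled) and of all genes tested (open), under the reported setting and 17 alternatives. The number runs from 0 to 10, while the median of the 39 genes lies between 0.27 and 0.61 and above that of all genes in each setting.

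No related gene measured outside the symbol rule passed the threshold, though most changes in each list were positive. Across all genes tested, 50.5% had a positive change. Of 12 other pore genes measured, 0 were past the threshold in limma and 2 were higher in fetal liver at an unadjusted p under 0.05, with 10 positive changes and a median of 0.36. Among all genes tested, 10.7% were higher at that unadjusted threshold. Those 2 were Sec13, a Y complex subunit shared with COPII vesicle coats, at 3370 ± 168 in fetal liver and 2011 ± 629 in marrow (SD, n = 3 each; change 0.79 ± 0.24, SE, limma adjusted p = 0.0727), and Aaas, which encodes the nucleoporin ALADIN (0.85 ± 0.27, limma adjusted p = 0.0899). Sec13 passed the threshold in 3 of 17 alternatives, with a change of 1.03 without marrow replicate 3 (limma adjusted p = 0.0237). Of 7 other transport receptors 0 passed in limma and 2 were higher at an unadjusted p under 0.05. Cse1l, which returns importin alpha to the cytoplasm, had signals of 3527 ± 164 in fetal liver and 2002 ± 828 in marrow (SD, n = 3 each; change 0.89 ± 0.27, SE, limma adjusted p = 0.0777). It passed in 3 of 17 alternatives, with a change of 1.21 without marrow replicate 3 (limma adjusted p = 0.0172). Snupn, the import adaptor of spliceosomal particles, had a change of 0.89 ± 0.30 (limma adjusted p = 0.102).

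Of 7 genes of the Ran cycle 0 passed in limma and 1 was higher at an unadjusted p under 0.05, with a median change of 0.22. Rcc1, the exchange factor that loads Ran with GTP, had signals of 849 ± 69.0 in fetal liver and 472 ± 227 in marrow (SD, n = 3 each; change 0.94 ± 0.36, SE, limma adjusted p = 0.143). Without marrow replicate 3 its change was 1.31 (limma adjusted p = 0.0403). Rangrf, a Ran-binding protein, had a change of 0.52 ± 0.40 (limma adjusted p = 0.494). Of 19 mRNA export genes 0 passed in limma and 2 were higher at an unadjusted p under 0.05, with a median of 0.26. They were the cap-binding gene Ncbp1 (0.55 ± 0.18, limma adjusted p = 0.0885) and Mcm3ap, which encodes the scaffold of an export complex at the pore (0.83 ± 0.32, limma adjusted p = 0.153). Of 18 proliferation genes 0 passed in limma, 7 were higher and 0 lower at an unadjusted p under 0.05 (against 10.7% and 12.1% of all genes), and 15 had positive changes with a median of 0.33. The mitotic kinase genes Aurkb and Aurka had the smallest p (0.70 ± 0.19 and 1.23 ± 0.34, limma adjusted p = 0.0521 and 0.0541), and passed the threshold under 4 of 16 and 7 of 17 alternatives that measured them. The summed signal of the proliferation genes was 107919 to 135177 in fetal liver and 101061 to 121464 in marrow, which overlapped, and its part in the changes of the pore genes was not tested.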

How the data were processed

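RNA of MkP from fetal liver (3 samples) and bone marrow (3 samples) was measured on Affymetrix arrays. The authors deposited 1 linear signal intensity per probe set and array, and the submitters' processing notes name MAS5. Its version is not given in the sources used. The mean after trimming 2% at each end was 500 on every array. Precision is limited by the 3 arrays per tissue. The p-values rest on the spread between these samples and on the variance trend that limma fits over all genes. They cover no other spread.

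Signals were converted to log2(signal + 2.87), the offset being the 10th percentile of all signals. Fold changes of dim genes are understated on it. Control probe sets were set aside, and 27022 of the 45037 others, with a mean above the 40th percentile, were kept. Genes were named from GEO's platform annotation (34945 probe sets with 1 symbol, 932 with several, which were left out). The brightest kept probe set stood for each of 11625 genes, and this choice was repeated in every alternative. The 39 genes had 102 probe sets, and all 39 matched by identifier to RefSeq genes (GRCm38.p6).

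The tissues were compared over all genes in limma 3.58.1 (R 4.3.3; lmFit and trended eBayes). The threshold was 0.05 after Benjamini-Hochberg adjustment. For array measures, exact permutation tests (two-sided) were used. No set test was run. Genes named with values were those past the threshold, the 4 largest changes in each direction and the 4 brightest among the rest, the smallest p of each role, and Kpnb1, Xpo1, Nup98, Kpna2 and Xpo7. Other genes were added after their values were seen. Members, lists and tests were chosen with earlier results of these data known. Replicate numbers were checked for pairing: deviations from tissue means correlated at 0.15, -0.02 and 0.08 for same-numbered arrays, so they were not treated as pairs. Figures used matplotlib 3.10.9.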

Additional observations from a re-analysis of the deposited data

How the results depend on the processing

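Results were recomputed under 17 alternatives. Under median centring 897 genes were higher and 438 lower in fetal liver, against 350 and 553 as reported, 10 of the 39 genes rose and their median change was 0.61. Quantile normalization gave 3 of the 39. Without the variance trend 166 genes were higher and 0 of the 39 rose. With 1 array left out, 102 to 320 genes were higher and 317 to 451 lower, 0 to 2 of the 39 rose, and their median change was 0.27 to 0.38. Leaving out an array also lowers the number of samples in the test. In a fit with a replicate block, 522 genes were higher and 688 lower, and the same 6 genes rose. Nup210 and Nup85 came close to the threshold in that fit without passing it (limma adjusted p = 0.0584 and 0.0623). Deviations from tissue means correlated at 0.15, -0.02 and 0.08 for same-numbered arrays and at -0.15 to 0.10 for differently numbered ones. Whether arrays that share a number also share a batch was not tested. The offsets of 1 and 16, the filter at the 60th percentile (37 of the 39 measured) and the floor at the bacterial controls also kept all 6. Without a filter 4 rose, and without probe sets for several transcripts 5 of 34 measured rose. None of the 39 fell under any alternative. Of the 39 genes, 14 turned sign under at least 1 alternative. Under quantile normalization Xpo4 read -0.093 and Kpna4 -0.30. Under median centring Ipo13 read 0.0066, Ipo8 0.17, Ipo9 0.14 and Nup153 0.24. With the mean of the probe sets Xpo7 read -0.30, Ipo8 0.35, Kpna4 -0.039 and Nup155 -0.021, and without probe sets for several transcripts Xpo7 read -0.32. With 1 array left out the ranges that crossed 0 were -0.59 to 1.22 for Xpo4, -0.53 to 0.19 for Ipo13, -0.19 to 0.089 for Ipo8, -0.29 to 0.092 for Ipo9, -0.0026 to 0.35 for Kpna1, -0.021 to 0.25 for Kpna4, -0.078 to 0.28 for Kpna6, -0.021 to 0.38 for Kpnb1, -0.11 to 0.13 for Nup153, -0.11 to 0.43 for Nup188, -0.066 to 0.097 for Nup62 and -0.025 to 0.51 for Xpo5. Of the 10 related genes named, Sec13, Aaas, Cse1l, Snupn, Ncbp1, Aurka and Aurkb passed under median centring. Another probe set stood for Xpo4 wherever its sign turned and for Kpna4 under quantile normalization and without fetal liver replicate 1. Beyond these switches and the averaging or removal of probe sets, the cause was not tested. Nup210l alone among the 39 was not above background on every array. Kpna7 was above it but dim, and like Nup210l was not measured under the filter at the 60th percentile.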

Other observations

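Several of the 39 genes are read by more than 1 probe set. Of 52 further kept probe sets above background on every array, which belong to 28 genes, 37 had the sign of the brightest probe set of their gene. Nup133 had 2 such probe sets besides its brightest with all fetal liver arrays above all marrow arrays, with differences of 0.95 and 0.89 (log2). Another, also above background on every array, overlapped between tissues and gave -0.27. For Kpna1 the 5 probe sets gave 0.18 for the brightest and 1.01, -0.45, 0.36 and 0.67 for the others, so its direction depends on the probe set. All 3 probe sets of Ipo9 were negative, at -0.11, -0.34 and -0.47. The dimmer probe sets of Ipo5 gave 0.65 and -0.48.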
